A study of Mus musculus with 9 samples.

Results

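Inhibitory surface receptors set a brake on B cells, and 8 of their genes were examined in splenic B cells: Siglecg, Cd72, Pirb, Lair1, Ceacam1, Cd200, Cd200r1 and Lilrb4. The members were the rows of the expression table that carry one of these symbols, so that 8 of the 23954 distinct gene symbols in the table were members, each on a single row. Membership rests on the gene symbol and not on a level or a fold change. The symbols were chosen, however, with earlier results of these data known. Lair1 and Lilrb4 were higher in marginal zone (MZ) B cells than in follicular (FO) B cells or in BDL, the IgD low subset. Cd200 was lower in MZ B cells than in both. None of the members tested was called different between BDL and FO B cells.

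A B cell receptor that binds antigen starts a kinase cascade, and inhibitory receptors on the same membrane dampen it. Most of them carry in the part inside the cell a short tyrosine motif, the immunoreceptor tyrosine-based inhibitory motif (ITIM). When its tyrosine is phosphorylated, the motif binds phosphatases with SH2 domains, such as SHP-1 and SHIP-1, which remove phosphates from the cascade. The receptors differ in what they bind outside the cell: Siglec-G (Siglecg) binds sialic acids, CD72 binds semaphorin 4D, PIR-B (Pirb) binds MHC class I, LAIR-1 (Lair1) binds collagens and CEACAM1 binds other CEACAM molecules. CD200 is the exception, since it is the ligand of the inhibitory receptor CD200R1 and is itself read by other cells.

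The libraries came from naive mice of 8 to 10 weeks, untreated and carrying no stated allele or transgene, with a pool of 5 mice for each sort. Splenic B cells were enriched by negative magnetic selection and sorted by flow cytometry into 3 subsets. FO B cells and BDL shared the gate B220+IgMintCD21intCD23+CD93- and were separated by high or low surface IgD, whereas MZ B cells were B220+IgMhiCD21hiCD23-CD93-. Each subset was sorted on 3 dates, which gave 3 libraries per subset and 9 in all, and a replicate number stands for 1 date. The strain is C57/BL6 in the sample labels and B10.PL in the study's text, and which of them the mice were was not tested.

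Expression was measured by RNA-seq as FPKM, fragments counted per length of transcript and per depth of the library, so that levels can be set side by side between genes. The libraries summed to between 446033 and 517208 FPKM. From the steps between low values, 1 fragment on a transcript of 1 kb was worth 0.0138 to 0.0186 FPKM. The summed FPKM of 4 MZ markers was 839 to 945 in MZ B cells, 193 to 203 in FO B cells and 167 to 176 in BDL. The largest part was the complement receptor Cr2, with means of 141 FPKM in FO, 107 in BDL and 454 in MZ B cells. Dtx1 averaged 38.2, 37.2 and 232 FPKM in that order. Cd1d1 averaged 16.5, 20.8 and 120 FPKM, and Cd9 averaged 1.98, 7.32 and 73.8 FPKM, so that these means were higher in BDL than in FO. The B cell genes Cd79a, at 930.0 to 1760.0 FPKM, and Ms4a1, at 402.0 to 852.0 FPKM, were abundant in all 9 libraries. Of 12 myeloid genes, 5 were below 1 FPKM in every library, and the list summed to 8.73 to 16.4 FPKM in FO B cells, 10.3 to 19.7 in BDL and 13.6 to 25.1 in MZ B cells. The 6 T cell genes summed to 3.4 FPKM at most. Single genes of other cell types were higher in BDL than in FO. The means in FO and BDL were 0.802 and 3.48 FPKM for the myeloid gene Emr1 and 1.49 and 5.87 for the erythroid gene Hbb-b1. For the plasma cell gene Sdc1 they were 1.5 and 8.47 FPKM. No tested gene of the lists for other cell types was called lower in BDL than in FO. In pools of sorted cells, fewer expressing cells and less RNA per cell cannot be told apart.

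The coding sequences show which members carry the inhibitory motif. The motif was searched in the translated GENCODE M1 coding sequence (genome build NCBIM37, the same assembly as mm9) as isoleucine, valine, leucine or serine, any residue, tyrosine, any pair of residues, and isoleucine, valine or leucine. Each site in a tail is shown as the 18 bases that encode it, with the tyrosine codon in capitals.
Siglecg, codon 590 of 688: ctggacTACatcaatgtg
Siglecg, codon 659: ctccacTATgctgctctc
Siglecg, codon 682: tctgatTACacagaggtc
Cd72, codon 7 of 361: atcacgTATgcagacctg
Cd72, codon 39: ctcaccTACgagaatgtg
Lair1, codon 228 of 263: gtgacgTATatccagctg
Lair1, codon 257: agcacaTATgcagccatc
Ceacam1, codon 488 of 521: gtcgcaTACactgtcctg
Lilrb4, codon 300 of 335: attgtcTACgcccaggta
Lilrb4, codon 322: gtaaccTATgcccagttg
In CD72 the start of the protein lies inside the cell, and the sites shown stand there, while in the other proteins they stand near the end. Further matches are not shown, at codons 95 and 118 of Cd72, codon 196 of Siglecg and codon 10 of Lilrb4. The search was thus not specific to tails. Cd200r1 held no match, and Cd200 held 1, at codon 16, near its start and outside the tail. Pirb had no gene of that symbol in this annotation and is named only. Lair1 and Ceacam1 also have annotated isoforms without a tail motif: 4 of 8 complete coding transcripts of Lair1 and 2 of 5 of Ceacam1 held one, against 5 of 5 of Cd72 and 4 of 4 of Lilrb4. The table gives 1 value per gene, so that isoforms were not separated.

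Positions on NCBIM37 follow for each member but Pirb, which had no gene of that symbol there. Siglecg is on chromosome 7 at 50663574 to 50673728 on the plus strand, with Ceacam1 at 26246721 to 26262644 and Lair1 at 3958675 to 4014806 of the same chromosome, both on the minus strand. Cd72 is on chromosome 4 at 43459334 to 43467500, on the minus strand. The ligand and its receptor are both on chromosome 16, Cd200 at 45382248 to 45409166 on the minus strand and Cd200r1 at 44765849 to 44795091 on the plus strand. Lilrb4 is on chromosome 10 at 51200446 to 51216419, on the plus strand. On the build GRCm38.p6, Pirb and Lair1 have promoter entries on the minus strand of chromosome 7. That of Pirb is at 3720333 to 3720632 and that of Lair1 at 4063155 to 4063454.

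The members' levels spanned several orders of magnitude. Siglecg and Cd72 together made up 77.2% to 86.4% of the members' summed FPKM in every library. In the FO and BDL libraries, Ceacam1, Pirb and Cd200 followed at 14.8 to 30.6 FPKM, then Lilrb4 and Lair1. In the MZ libraries, Lilrb4 followed Siglecg and Cd72 at 26.8 to 44.5 FPKM, above Ceacam1, Pirb, Lair1 and Cd200. Cd200r1 was lowest in all 9 libraries. Lilrb4 and Lair1 together held 0.321% to 0.866% of the sum in the FO and BDL libraries and 8.01% to 9.79% in the MZ libraries. The sum itself was 319.0 to 529.5 FPKM.

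**Figure D1:**
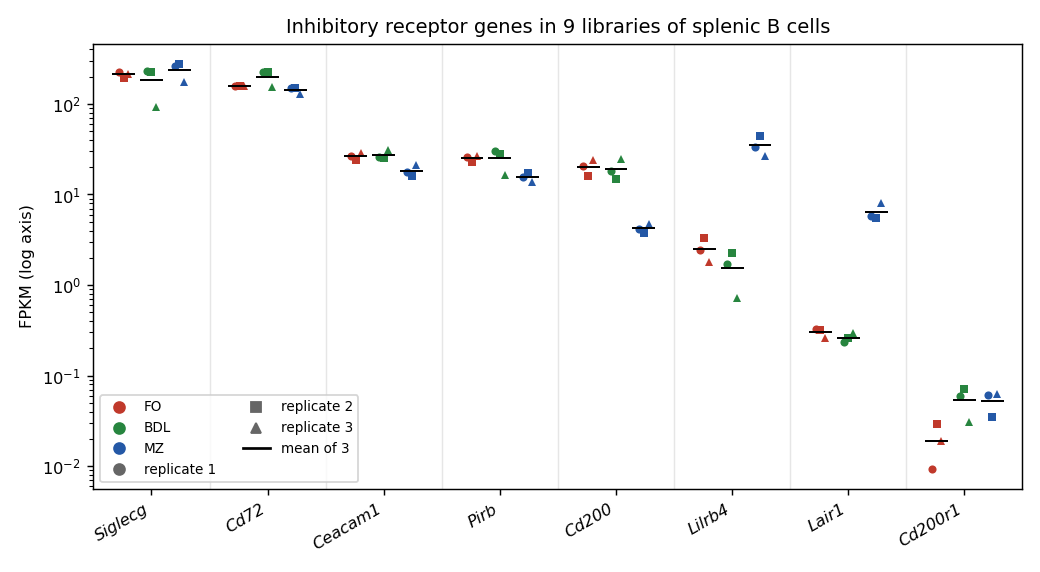
FPKM of the 8 members in each of the 9 libraries, on a log scale, with 1 point per library and a bar at the mean of each subset (n = 3). Lair1 and Lilrb4 lie higher in all 3 MZ libraries than in any FO or BDL library, Cd200 lies lower in all 3, and Siglecg overlaps between the subsets.

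Of the 8 members, 7 reached a mean of 0.5 FPKM over the 9 libraries and were tested with limma among 11597 rows, while Cd200r1 did not. Lair1 passed this minimum only through its MZ level, since its means were 0.301 FPKM in FO and 0.263 in BDL. Its calls against MZ are therefore not independent of the filter. A call needed both a Benjamini-Hochberg adjusted p below 0.05 and a difference of 2-fold or more. Between MZ and FO B cells, 2 members were called higher in MZ (Lair1 and Lilrb4) and 1 lower (Cd200), where 5.54% of all rows tested were called higher and 3.39% lower. Between BDL and MZ B cells, 1 member was called higher in BDL (Cd200) and 2 lower (Lair1 and Lilrb4), where 3.47% of all rows were called higher and 4.34% lower. Between BDL and FO B cells, 0 members were called in either direction, where 1.64% of all rows were called higher and 0.267% lower. With limma's unadjusted p, 0 of the 7 were under 0.05 in that comparison as well. The comparisons share libraries and are not independent of each other. The median log2 fold change of the 7 members was -0.15 for MZ against FO, 0.47 for BDL against MZ and -0.10 for BDL against FO, beside -0.01, 0.06 and 0.05 over all rows tested.

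**Figure D2:**
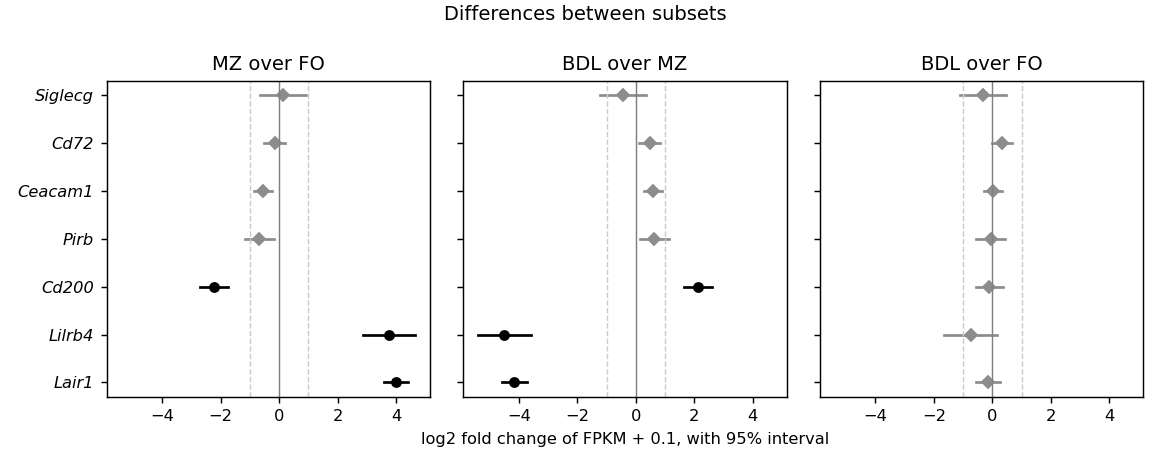
Log2 fold change of each member on the log2(FPKM + 0.1) scale with its 95% interval from limma, for the 3 comparisons of subsets. Lair1, Lilrb4 and Cd200 lie past the 2-fold lines in both comparisons with MZ B cells, and every interval of BDL against FO crosses 0.

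Lair1, the collagen receptor, was low in FO B cells and BDL and higher in MZ B cells. Its level was 0.325, 0.319 and 0.26 FPKM in the FO libraries of replicates 1 to 3, 0.237, 0.258 and 0.295 FPKM in BDL and 5.8, 5.5 and 7.97 FPKM in MZ B cells. All 3 MZ libraries were above every other library without overlap, while FO and BDL overlapped. The mean rose from 0.301 ± 0.0356 FPKM (SD, n = 3) in FO and 0.263 ± 0.0293 FPKM (SD, n = 3) in BDL to 6.42 ± 1.35 FPKM (SD, n = 3) in MZ B cells, a ratio of means of 21.3 against FO and 24.4 against BDL. These levels correspond to approximately 33 to 53 fragments in each FO or BDL library and 795 to 1070 in each MZ library. The log2 fold change of MZ against FO was 4.01 (SE 0.181, limma, Benjamini-Hochberg adjusted p = 2.56e-06), and that of BDL against MZ was -4.15 (SE 0.181, adjusted p = 3.35e-06). Since FO and BDL stood near the 0.1 FPKM added before the logarithm, the size depended on that choice: with 1 FPKM added, the values were 2.50 and -2.54.

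Lilrb4, which encodes the receptor gp49B, showed a like direction at a higher level. Its FPKM was 2.41, 3.33 and 1.78 in FO B cells, 1.7, 2.25 and 0.728 in BDL and 33.1, 44.5 and 26.8 in MZ B cells. The MZ libraries were again all above the others, and FO and BDL overlapped. The mean was 34.8 ± 8.98 FPKM (SD, n = 3) in MZ B cells, 13.9 times the FO mean of 2.51 ± 0.776 and 22.3 times the BDL mean of 1.56 ± 0.772 (SD, n = 3 each). The log2 fold change was 3.76 for MZ against FO (SE 0.395, limma, adjusted p = 0.000214) and -4.49 for BDL against MZ (SE 0.395, adjusted p = 9.33e-05; -3.82 with 1 FPKM added). Lilrb4 was highest in replicate 2 of each subset, where the 12 myeloid genes also had their highest sums, 16.4 FPKM in FO, 19.7 in BDL and 25.1 in MZ B cells. In replicate 2 the neutrophil genes S100a8 and S100a9 reached 1.95 to 2.82 FPKM, against 0.536 at most in the other libraries. Lyz2, Csf1r, Itgam, Cd68 and Clec7a were also highest in replicate 2 of each subset, whereas Cd14, Fcgr1, Cx3cr1, Csf3r and Emr1 were not. The 4 NK cell genes had their highest sums in replicate 2 as well (5.3 FPKM in FO, 4.73 in BDL and 4.81 in MZ), as had the 6 T cell genes. Lilrb4 is also expressed by myeloid cells, and the part of such cells in its level was not tested. Lair1 did not share the replicate order of Lilrb4, since its highest MZ value was in replicate 3. On each of the 3 sort dates, the log2 difference between MZ and FO was 3.70 to 3.83.

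Lilrb4 has a near-identical neighbour, Gp49a, whose rows could share reads. On NCBIM37 the annotated Gp49a gene, at 51200438 to 51206122 of chromosome 10, overlaps that of Lilrb4 on the same strand. Their coding sequences were identical at 967 of 1005 aligned bases (96.2%), and 203 of 959 runs of 50 bases in one occurred in the other (21.2%). Gp49a has 2 complete coding transcripts in this annotation. The longer, of 334 codons, held the motif in its tail, and the other, of 303 codons, did not. Which form the B cells expressed was not tested, so that the sites below do not show Gp49a to be an inhibitory receptor. A match at codon 10 of the longer form is not shown.
Gp49a, codon 299: attgtgTACgcccaggta
Gp49a, codon 321: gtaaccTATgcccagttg
The FPKM of Gp49a was 1.51, 2.25 and 1.26 in FO B cells, 0.987, 1.56 and 0.557 in BDL and 15.9, 24.8 and 13.4 in MZ B cells, without overlap between MZ and the others. Its log2 fold change was 3.35 for MZ against FO (limma, adjusted p = 0.000298) and -4.05 for BDL against MZ (adjusted p = 0.00012). The ratio of Lilrb4 to Gp49a was 1.31 to 2.08 over the 9 libraries. How the reads were divided between them is not given in the sources used here, and each value is uncertain to that extent.

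Cd200, the ligand, ran the opposite way. Its FPKM was 20.8, 16.2 and 24.0 in FO B cells, 18.2, 14.8 and 24.6 in BDL and 4.15, 3.73 and 4.78 in MZ B cells. Every MZ library was below every other library, and FO and BDL overlapped. The mean of 4.22 ± 0.529 FPKM (SD, n = 3) in MZ compared with 20.3 ± 3.93 in FO and 19.2 ± 4.97 in BDL (SD, n = 3 each), 4.82-fold and 4.55-fold as ratios of means. By limma, the log2 difference was -2.23 for MZ against FO (SE 0.208, limma, adjusted p = 0.00011) and 2.13 for BDL against MZ (SE 0.208, adjusted p = 0.000161).

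Cd200r1, the receptor for CD200, was barely detected in any subset. Its FPKM was 0.0094, 0.0293 and 0.0189 in FO B cells, 0.0598, 0.0714 and 0.0308 in BDL and 0.061, 0.0349 and 0.0622 in MZ B cells. These are approximately 1 to 3 fragments in each FO library, 4 to 8 in BDL and 4 to 6 in MZ, so that no fold change is given. The FO libraries were all below the BDL and MZ libraries, with an exact permutation p of 0.1 for each (two-sided), the smallest that 3 libraries against 3 allow. With no minimum level, limma on 18518 rows gave an adjusted p of 0.139 for BDL against FO and 0.0804 for MZ against FO. These tests could not settle whether there is a difference. The exact p cannot fall below 0.1, and the 0.1 FPKM added before the logarithm exceeds every value of this gene.

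Siglecg, the sialic acid receptor, was the most abundant member in 7 of the 9 libraries. Its FPKM was 224, 195 and 213 in FO B cells, 232, 224 and 93.4 in BDL and 260, 274 and 173 in MZ B cells. All 3 subsets overlapped, and the lowest value by far was that of BDL replicate 3. The means were 211 ± 14.6, 183 ± 77.6 and 236 ± 54.7 FPKM (SD, n = 3 each). The log2 fold change was 0.13 for MZ against FO (limma, adjusted p = 0.821, 95% interval -0.65 to 0.92) and -0.45 for BDL against MZ (adjusted p = 0.37, -1.24 to 0.34).

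Cd72, the receptor for semaphorin 4D, varied least between the FO libraries, at 157, 159 and 157 FPKM. It was 222, 227 and 153 FPKM in BDL and 150, 150 and 128 FPKM in MZ B cells. MZ lay below FO and BDL without overlap, whereas BDL replicate 3 lay below the FO libraries and the other two BDL libraries above them. Fitted on the log2 scale, the difference was -0.15 for MZ against FO (SE 0.155, limma, adjusted p = 0.537) and 0.47 for BDL against MZ (SE 0.155, adjusted p = 0.0544). With the sort date as a block, the latter had an adjusted p of 0.0218, and its 1.39-fold size stayed below the 2-fold threshold.

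Relative to FO B cells, Pirb and Ceacam1 were both lower in MZ by the adjusted p, with differences under 2-fold that were not called. Pirb, the MHC class I receptor, was at 26.2, 22.6 and 26.4 FPKM in FO B cells, 30.3, 28.2 and 16.5 in BDL and 15.7, 17.2 and 13.9 in MZ B cells. MZ did not overlap with FO, and BDL replicate 3 alone reached into the MZ range. The log2 fold change was -0.69 for MZ against FO (SE 0.217, limma, adjusted p = 0.0479) and 0.63 for BDL against MZ (SE 0.217, adjusted p = 0.0622, or 0.0417 with a block for the sort date). The first was close to the threshold, with adjusted p from 0.00191 to 0.143 over 20 alternatives and under 0.05 in 10 of them.

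Ceacam1 was at 26.8, 24.0 and 28.9 FPKM in FO B cells, 25.9, 25.2 and 30.6 in BDL and 17.5, 15.9 and 21.4 in MZ B cells. MZ lay below both without overlap, and FO and BDL overlapped. By limma, the log2 difference was -0.54 for MZ against FO (SE 0.133, limma, adjusted p = 0.0175) and 0.58 for BDL against MZ (SE 0.133, adjusted p = 0.0137). By the adjusted p alone, 2 members were thus higher and 3 lower in the MZ subset when set against FO, where 14.3% of all rows were higher and 12.8% lower. By the same rule, 2 members were higher and 2 lower in BDL than in MZ B cells (16.5% and 11.6% of all rows), and 0 and 0 in BDL than in FO B cells (6.04% and 1.68%).

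Ceacam2, next to Ceacam1 in sequence, went the other way. Its FPKM was 8.41, 7.71 and 8.72 in FO B cells, 8.42, 8.17 and 9.8 in BDL and 14.4, 13.0 and 21.0 in MZ B cells, all MZ libraries above the rest. The difference of MZ from FO was 0.92 on the log2 scale (limma, adjusted p = 0.00465) and just under 2-fold. The ratio of Ceacam1 to Ceacam2 was 3.11 to 3.32 in FO B cells, 3.07 to 3.13 in BDL and 1.02 to 1.22 in MZ B cells, so that the MZ libraries held both genes at close to equal levels. The coding sequences were 90.5% identical and shared 35.5% of their runs of 50 bases, and the division of reads between them is uncertain in the same way as for Lilrb4.

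The activating partners of Pirb, the Pira genes, are likewise close copies of it. Pira2 was at 11.0, 8.67 and 11.7 FPKM in FO B cells, 11.7, 10.2 and 11.0 in BDL and 5.19, 4.8 and 5.5 in MZ B cells, without overlap between MZ and the others. It was called higher in BDL than in MZ (log2 fold change 1.07, limma, adjusted p = 0.000375), and it was just under 2-fold lower in MZ than in FO (adjusted p = 0.000502). Pira6 was called in both comparisons, at -1.31 for MZ against FO (adjusted p = 0.00639) and 1.46 for BDL against MZ (adjusted p = 0.00399). Pira11 and Pira4 were lower in MZ than in FO by the adjusted p alone, at -0.91 and -0.68. Of 19 near paralogs listed for the members, 14 were in the table and 6 were tested, with 1 called in each direction between MZ and FO, beside 5.54% of all rows higher and 3.39% lower. In BDL against MZ, 2 were called higher and 1 lower, beside 3.47% and 4.34% of all rows. Their median log2 fold change was -0.79 for MZ against FO, beside -0.01 over all rows. By the adjusted p alone, 4 of the 6, all Pira genes, were lower in MZ than in FO. Gp49a (3.35) and Ceacam2 (0.92) were higher, so that the median reflects the Pira genes, which are close copies and may share reads.

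**Figure D3:**
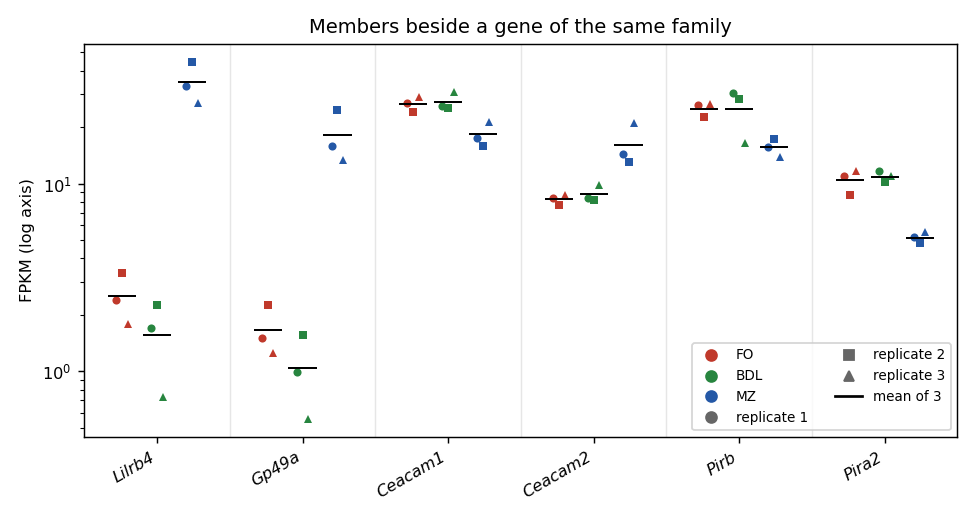
FPKM of Lilrb4 beside Gp49a, Ceacam1 beside Ceacam2 and Pirb beside Pira2 in the 9 libraries, on a log scale. Each gene has 1 point per library, coloured by subset, and a bar at the mean of each subset. Lilrb4 and Gp49a are high together in the 3 MZ libraries, Ceacam1 is lower and Ceacam2 higher there, and Pirb and Pira2 are both lower.

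Between BDL and FO B cells, the subsets that differ by the IgD gate, every tested member overlapped. The log2 fold change of BDL against FO was -0.32 for Siglecg (95% interval -1.10 to 0.47), 0.32 for Cd72 (-0.03 to 0.68) and -0.05 for Pirb (-0.55 to 0.44). It was 0.03 for Ceacam1 (-0.27 to 0.34), -0.10 for Cd200 (-0.57 to 0.38) and -0.14 for Lair1 (-0.56 to 0.27). The limma adjusted p of these members was 0.248 to 0.902. The intervals of Cd72, Pirb, Ceacam1, Cd200 and Lair1 exclude a 2-fold difference, and that of Siglecg does not exclude a 2-fold decrease. Lilrb4 was lower in BDL on each of the 3 sort dates, by a log2 fold change of -0.74 (-1.64 to 0.17, adjusted p = 0.295). With the sort date as a block its adjusted p was 0.0321, at 1.66-fold, and without BDL replicate 3 the value was -0.30 (adjusted p = 0.641).

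BDL replicate 3 set the spread of several members. Relative to the mean of replicates 1 and 2 of its subset on the log2 scale, it was at -1.28 for Siglecg, -0.55 for Cd72, -0.82 for Pirb and -1.31 for Lilrb4. The same library was at 0.26 for Ceacam1, 0.58 for Cd200 and 0.19 for Lair1. The third MZ library deviated with the same signs, at -0.62 for Siglecg, -0.22 for Cd72, -0.24 for Pirb, -0.52 for Lilrb4, 0.35 for Ceacam1, 0.27 for Cd200 and 0.49 for Lair1. The third FO library shared these signs for Lilrb4 (-0.64), Ceacam1 (0.19) and Cd200 (0.39), and it was at 0.02 for Siglecg, -0.01 for Cd72, 0.12 for Pirb and -0.23 for Lair1. Over all rows, BDL replicate 3 had the largest spread of log2 differences from the other libraries of its subset (SD 1.01, against 0.773 to 0.898).

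Without BDL replicate 3, Siglecg and Pirb turned to 0.11 and 0.22 for BDL against FO (limma, adjusted p = 0.814 and 0.318). Cd72 was then 0.51 higher on the log2 scale in BDL than in FO (adjusted p = 0.024) and 0.66 higher than in MZ (adjusted p = 0.00232), and Pirb was 0.91 higher in BDL than in MZ (adjusted p = 0.00122), all under 2-fold. Siglecg was at -0.02 for BDL against MZ without that library. Without all 3 libraries of replicate 3, an alternative chosen after the values were seen, Siglecg was 0.35 higher in MZ than in FO on the log2 scale (adjusted p = 0.0405) and Cd72 0.50 higher in BDL than in FO (adjusted p = 0.0184). The part of the sort date in these values was not tested.

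**Figure D4:**
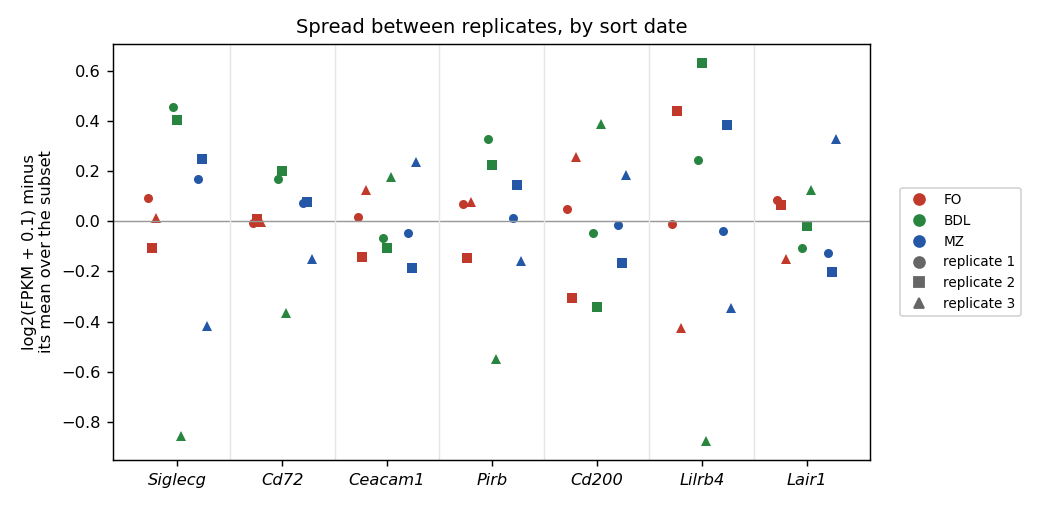
Deviation of each library from the mean of its subset, on the log2(FPKM + 0.1) scale, for the 7 members tested, with colour for the subset and point shape for the sort date. The triangles of BDL replicate 3 lie lowest for Siglecg, Cd72, Pirb and Lilrb4, and above 0 for Ceacam1, Cd200 and Lair1.

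The genes whose levels followed the 3 called members most closely were found by Pearson's r over the 9 libraries among 11169 rows, a description in which the subset means dominate. For Lair1 the nearest was Dtx1 (r = 0.9991), which encodes the Notch regulator Deltex and averaged 38.2 FPKM in FO B cells, 37.2 in BDL and 232 in MZ B cells. Sorbs2 (0.9983) and Zfp532 (0.9973) followed. For Cd200 they were Sorl1 (r = 0.9977), a sorting receptor at 82.8, 76.3 and 22.4 FPKM in FO, BDL and MZ, then the actin crosslinker Flna (0.9967) and the sterol regulator Srebf2 (0.9965). For Lilrb4 the nearest was its copy Gp49a (r = 0.9983), then Ddx60 (0.998) and Adam28 (0.9934).

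Other inhibitory receptors of B cells were listed to place the members among them. Of 16 listed, 11 were tested. In MZ against FO, 3 were called higher and 1 lower, beside 5.54% and 3.39% of all rows. In BDL against MZ, 1 was called higher and 2 lower, beside 3.47% and 4.34% of all rows. In BDL against FO, 2 were called higher and 0 lower, beside 1.64% and 0.267% of all rows, with a median log2 fold change of -0.01. Fcrl5, an Fc receptor-like molecule, was at 6.9, 5.16 and 5.29 FPKM in FO B cells, 21.2, 16.3 and 17.4 in BDL and 101.0, 81.4 and 108.0 in MZ B cells. Its 3 subsets were apart, with BDL between the others, and BDL against FO was 1.65 on the log2 scale (limma, adjusted p = 0.00113). Cd5, which dampens antigen receptor signalling, was at 0.638, 0.566 and 0.385 FPKM in FO B cells and at 1.51 to 2.45 FPKM in the other subsets, a log2 fold change of 1.80 for BDL against FO (adjusted p = 0.00322). Cd300lf was higher in MZ than in FO (3.21, adjusted p = 0.000422). Btla, the receptor for the TNF receptor family member HVEM, fell from 226.0 to 260.0 FPKM in FO to 65.5 to 96.9 FPKM in MZ B cells (log2 fold change -1.51, adjusted p = 0.00148). Cd22, the other main sialic acid receptor of B cells, was at 363.0 to 425.0 FPKM in FO and 280.0 to 315.0 FPKM in MZ B cells and was not called (-0.40, adjusted p = 0.0757).

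Proteins that act downstream of inhibitory tails, phosphatases, kinases and adaptors, made up a further list. Of 13 listed, 12 were tested. Dok2 was the 1 gene called higher in MZ than in FO and the 1 called lower in BDL than in MZ, where 5.54% and 4.34% of all rows were called in those directions, and 0 were called between BDL and FO. Counts this small are near the shares of all rows. Dok2, an adaptor recruited by CD200R1 among others, was at 0.401 to 0.675 FPKM in FO B cells, 0.311 to 0.507 in BDL and 2.98 to 3.4 in MZ B cells. Its log2 fold change was 2.40 for MZ against FO (limma, adjusted p = 8.44e-05). Ptpn6, which encodes SHP-1, was at 272.0 to 329.0 FPKM in FO B cells and 205.0 to 262.0 in MZ B cells, a difference of -0.45 (adjusted p = 0.0364) below the 2-fold threshold. Inpp5d, which encodes SHIP-1, differed by -0.04 (adjusted p = 0.743).

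Ligands and the enzymes that make sialic acid ligands were the last list, with all 13 of 13 tested. Between MZ and FO B cells 2 were called lower and 0 higher, beside 3.39% and 5.54% of all rows. Between BDL and MZ 2 were called higher and 0 lower, beside 3.47% and 4.34% of all rows, and 0 were called between BDL and FO. Cmah, which turns N-acetyl into N-glycolyl neuraminic acid, was at 75.0, 75.5 and 74.4 FPKM in FO B cells, 58.9, 61.9 and 47.4 in BDL and 25.3, 25.0 and 20.1 in MZ B cells. The subsets did not overlap, and MZ against FO was -1.68 on the log2 scale (limma, adjusted p = 3.53e-05). St6gal1, which adds sialic acid in the linkage that CD22 binds, was at 69.3 to 72.3 FPKM in FO B cells, 62.6 to 88.1 in BDL and 24.8 to 28.4 in MZ B cells (-1.42 for MZ against FO, adjusted p = 0.000125). St3gal1 was lower and St3gal6 higher in MZ than in FO by the adjusted p (0.000178 and 4.39e-05), both at the edge of the 2-fold threshold and not called.

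**Figure D5:**
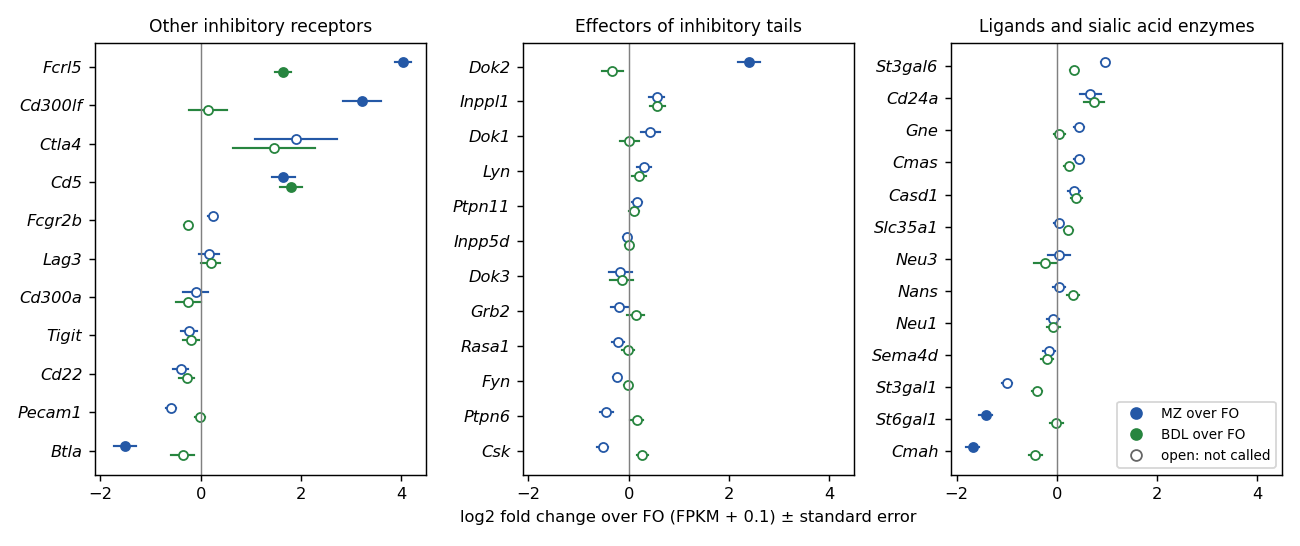
Log2 fold change of the tested genes of the 3 lists (other inhibitory receptors, effectors of inhibitory tails, ligands and sialic acid enzymes) for BDL against FO and MZ against FO B cells, with bars for 1 standard error and filled points for called genes. Fcrl5 and Cd5 were called in both comparisons, and Dok2, Cd300lf, Btla, Cmah and St6gal1 were called in MZ against FO and in BDL against MZ, and not in BDL against FO.

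Promoter sequences are shown for the called members that have an entry, since Dtx1, the gene nearest to Lair1, is a known target of Notch signalling, whose DNA-binding factor RBPJ recognises TGGGAA. The letters were searched on both strands of the RefSeq promoters of GRCm38.p6, 300 bases each, and 25.6% of 32851 such promoters held them. Of the 8 members, 6 had an entry. Lair1 held 1 match and Cd200 held 2, while Cd72, Ceacam1 and Pirb held 0, and of the 2 starts of Siglecg 1 held a match. The 250 bases before the start are printed on the gene's strand, with matches in capitals (TTCCCA is the same motif on the other strand).
Lair1, chr7:4063205-4063454, minus strand: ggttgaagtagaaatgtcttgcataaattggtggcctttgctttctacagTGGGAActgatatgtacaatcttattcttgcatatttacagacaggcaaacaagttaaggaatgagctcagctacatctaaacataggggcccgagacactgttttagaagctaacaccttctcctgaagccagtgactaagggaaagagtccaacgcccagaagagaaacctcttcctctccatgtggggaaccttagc
Cd200, chr16:45409054-45409303, minus strand: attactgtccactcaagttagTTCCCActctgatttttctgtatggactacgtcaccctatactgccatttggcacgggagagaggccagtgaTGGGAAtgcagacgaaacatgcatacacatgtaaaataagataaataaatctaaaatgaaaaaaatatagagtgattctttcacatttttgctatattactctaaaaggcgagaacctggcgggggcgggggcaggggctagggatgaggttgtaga
Lair1 was higher and Cd200 lower in MZ B cells, and a part of Notch signalling in either level was not tested. A match is a stretch of letters and not a shown site of binding.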

How the data were processed

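RNA-seq of 9 libraries was analysed, 3 each of FO B cells, BDL and MZ B cells, grouped by the sample labels. The authors aligned reads to mm9 with TopHat2 2.1.0 and computed with Cufflinks, whose version and annotation are not given in the sources used here, the deposited FPKM values, 1 per gene and library in a table of 24459 rows. The labels describe single-end libraries that are not strand specific and the study's text a stranded kit with 2 files per sample, so that antisense reads cannot be told apart with certainty. The authors' table of Cuffdiff comparisons (fold changes and p-values) was not used.

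FPKM were used as deposited, as log2(FPKM + 0.1). The 11597 rows whose mean reached 0.5 FPKM entered 1 limma fit (version 3.58.1, R 4.3.3; lmFit, contrasts, eBayes with a trend) of all 9 libraries, with the subset as the only term. Adjustment was by Benjamini-Hochberg over these rows, and a call needed an adjusted p below 0.05 and at least a 2-fold difference. Fold changes are on the log2(FPKM + 0.1) scale, which understates changes of low genes. For single values, exact permutation tests (two-sided) were run as well. P-values measure the spread between sorts of pooled mice. The scripts were tested on simulated data.

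The table holds no counts, and the step size among low values served to estimate depth. Per library, 63.6% to 74.5% of these values were within 0.1 of whole fragments, too few to recover counts, and fragment numbers are approximate and cover counting error only. Gene positions and coding sequences came from GENCODE M1 on NCBIM37, where 7 of 8 members matched, and promoters from RefSeq on GRCm38.p6. Promoters of chromosome 18 were left out.

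Libraries of a sort date share a replicate number, and the labels give the date, so that dates pair the libraries. Correlations of same-date deviations from the subset means were 0.147, -0.062 and 0.049 for BDL and FO, 0.024, 0.008 and 0.014 for MZ and FO, and 0.1, 0.182 and 0.244 for BDL and MZ (replicates 1 to 3). The fit with the date as a block was an alternative.

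All members were described, and the lists of other receptors, effectors of inhibitory tails, ligands and near paralogs were summarised by their counts, with called genes and a few that were not called named. Near patterns were the 3 rows with the highest Pearson's r for each called member. The members and lists were chosen with earlier results of these data known. Python 3.11.15 with pandas 2.3.3 and matplotlib 3.10.9 was used for tables and figures.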

Additional observations from a re-analysis of the deposited data

How the results depend on the processing

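All 21 fold changes of the 7 tested members were recomputed under 20 alternatives, and all 420 values kept their call. A kept call does not mean a kept direction. In BDL against FO, where no member was called, the sign changed in 4 alternatives for Ceacam1. It changed in 2 each for Siglecg, Pirb and Cd200. For the called members the log2 fold change of MZ against FO ranged over 2.50 to 4.35 for Lair1, 3.35 to 3.97 for Lilrb4 and -2.38 to -2.02 for Cd200. Ceacam1 was under an adjusted p of 0.05 in 16 of 20 alternatives for MZ against FO and in 19 of 20 for BDL against MZ. Sort date as a replicate block changed no member's call, moved the count of rows called lower in BDL than in FO from 31 to 49, and moved no other count by over 1.5 times.

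Counts over all rows moved under few settings. With 1 FPKM added, rows called in BDL against FO were 78 higher and 16 lower, beside 190 and 31, those called higher in MZ against FO were 406, beside 642, and those called higher in BDL against MZ were 267, beside 402. With the 6 libraries of the compared subsets alone, 17 rows were lower in BDL than in FO. Leaving out 1 library at a time gave 15 (without FO replicate 3) to 31 of these, and 17 without FO replicate 1. By the adjusted p alone, 701 rows were higher and 195 lower in BDL against FO, 1658 and 1483 in MZ against FO, and 1909 and 1346 in BDL against MZ. By that rule, 3 members were lower in MZ against FO and 2 higher in BDL against MZ. The causes were not tested beyond what these settings change themselves. No alternative moved the median of all rows by over 0.1. Leaving out all 3 libraries of replicate 3 was added after the data were seen.

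The values are limited by 3 libraries per subset, by the lack of counts, and by 1 value per gene, which does not separate isoforms or show how reads of near-identical copies (Lilrb4 and Gp49a, Ceacam1 and Ceacam2, Pirb and the Pira genes) were divided. Cd200r1 was too low to compare. RNA levels do not measure receptors on the surface.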
